A study of Mus musculus with 6 samples.

Results

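The genes described here are 28 that encode the presynaptic machinery of vesicle release, followed in the brains of mice with lowered expression of topoisomerase IIβ (Top2b) and of wild-type mice. They were taken by symbol, not by measured value, though with earlier results of these data known. Each symbol matched 1 Ensembl mouse identifier, so that the genes make up 28 of the 78298 rows of the deposited table. By role they comprise 6 SNARE and SNARE disassembly genes, 3 synaptotagmins, 3 complexins, 8 active zone and priming genes and 8 genes of vesicle proteins. All 28 passed the filter on low values, a mean of at least 10 normalised counts over the 6 libraries.

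The Top2b-low group held 3 male mice homozygous for an allele, made with CRISPR/Cas9, that carries an auxin-inducible degron tag at the beginning of the Top2b coding sequence, and the WT group held 3 wild-type male mice. An auxin-inducible degron is a peptide through which auxin can be used to bring about the breakdown of a tagged protein. Per the labels no drug or chemical was given to either group. The labels name no Cre line and no transgene promoter, and they give the age as 10 weeks in one place and 3.5 months in another. Per the labels, polyadenylated RNA came from the whole left side of the brain, 1 library per mouse. Cerebellar and hindbrain markers were far lower in 1 library of each genotype, as given below. Whether the same tissue was taken for all libraries was not tested. In each genotype the library of replicate 3 has a name that begins with N22, while the names of the other 4 libraries begin with X or NT. The name of the Top2b-low N22 library ends in dNdN where the other Top2b-low names end in Homo. The labels explain neither term, and it is not known from them whether the allele of that mouse is the one the others carry.

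A presynaptic terminal releases transmitter when vesicles docked at the active zone fuse with the plasma membrane. Fusion is driven by SNARE proteins, of which synaptobrevin (VAMP) sits on the vesicle and syntaxin and SNAP-25 on the plasma membrane. Synaptotagmins sense the calcium that triggers fusion, complexins bind the assembled SNARE complex, and scaffolds such as RIM, Bassoon and Piccolo, with the Munc13 priming factors, hold and prepare vesicles at the release site. The ATPase NSF and its SNAP adaptors take spent SNARE complexes apart. Several of these proteins come as related forms that brain regions use in different proportions, synaptotagmin-2 and Munc13-3 being known from hindbrain and cerebellar synapses.

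Depth and makeup differed among the libraries. Totals ran from 17237421 to 35246703 reads in Top2b-low libraries and from 16963067 to 28629911 in WT libraries, and the N22 library was the deepest of each genotype. Top2b itself had 2152, 2314 and 1965 normalised counts in Top2b-low libraries, against 3160, 3014 and 2485 in WT libraries, so the groups did not overlap, although the difference of −0.42 log2 units did not pass limma's test (adjusted p = 0.99997). It passed in DESeq2 with a term for the N22 libraries (adjusted p = 3.15e-05) or for the replicate number (adjusted p = 0.00062), models chosen after the values were seen, and not in limma or edgeR with the N22 term (adjusted p = 0.224 and 0.225). The 14 pan-neuronal markers summed to 109111 and 108910 normalised counts in the N22 libraries, against 107188 to 118683 in the other 4, and limma called 8 of them by library name, 2 higher and 6 lower in N22 (Nefh −0.97 log2 units, adjusted p = 5.16e-06). Of the 7 cerebellar granule cell markers, limma called 7 lower in the N22 libraries, where they summed to 2158 normalised counts in the Top2b-low and 2658 in the WT mouse, against 19944 to 25330 in the other 4. Of the 7 Purkinje cell markers, 7 were also called lower there (sums of 22744 and 19362 normalised counts, against 43245 to 51674), as were the 8 hindbrain markers tested (39 and 88.2, against 802 to 1389). Of the 11 hindbrain markers in the list, 6 were at 0 in both N22 libraries. Of 7 forebrain excitatory markers, 5 were called higher there (84898 and 72256, against 56342 to 69895), and of 7 striatal markers 4 were called higher (16813 and 15307, against 12325 to 14400). Of 6 astrocyte markers 3 were called lower in N22 (sums of 65218 and 57597 normalised counts, against 72826 to 75605), and of 6 oligodendrocyte markers 2 (110506 and 117111, against 119927 to 132133). Of 5 endothelial markers 3 were called lower and 1 higher (3181 and 2877, against 3473 to 3729.8), and of 6 microglial markers none (5820.3 and 5663, against 5432 to 5596). Among all 17391 genes tested, limma called 28% by library name, 11.3% higher and 16.7% lower in N22. The share of oligodendrocyte markers called (33.3%) was near that of all genes. In bulk tissue, fewer cells of a type and less RNA per cell cannot be told apart.

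The release genes spanned a wide range of levels. Per kilobase of exon, Snap25, a SNARE of the plasma membrane, was highest, with a mean of 6460 normalised counts per kb. Cplx1 followed at 5934, the vesicle membrane protein gene Syp at 4937, Vamp2 at 4360, Cplx2 at 4139, the vesicle GTPase gene Rab3a at 3865 and Syt1 at 3544 normalised counts per kb. At the low end stood Syn3 at 23.3, Unc13b at 52.8 and Cplx3 at 78.7. These levels per kb use the union of all annotated exons, so a gene with long alternative exons, such as Unc13b with 22746 exonic bases, is placed lower than its main transcript would be.

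**Figure D1:**
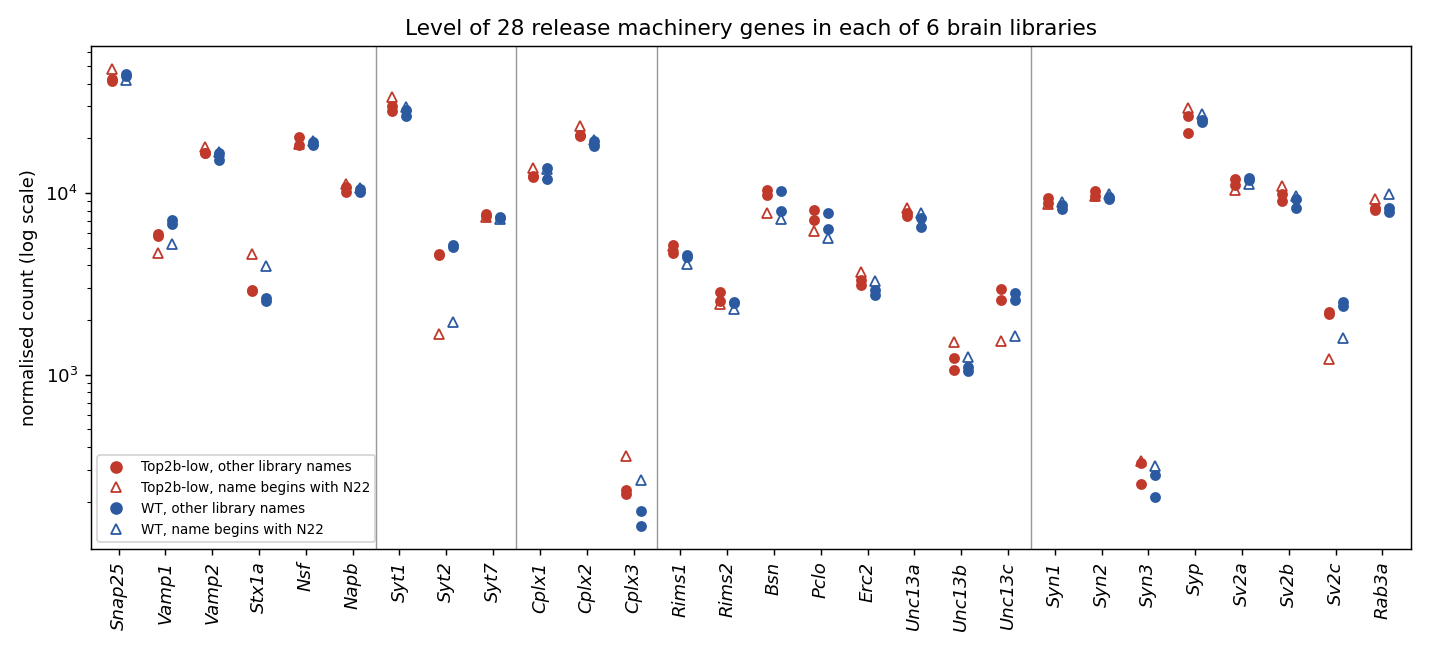
Normalised count (log axis) of the 28 genes in each library, Top2b-low libraries (red) left of WT libraries (blue) for each gene, with open triangles for the N22 libraries and grey lines between role groups. Most genes sit in one tight cluster of 6 points, while Syt2, Unc13c, Sv2c, Stx1a and Cplx3 have both triangles apart from the circles.

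The comparison of Top2b-low with WT mice, which the study set up to ask how lowered Top2b alters the adult brain transcriptome, gave no member past the threshold. With limma on log2(normalised count + 1) and Benjamini-Hochberg adjustment over all 17391 genes tested, 0 of 28 members were called, and 0% of all genes. Each member had an adjusted p of 0.99997. At an unadjusted p under 0.05, limma listed 1 member, edgeR 2 and DESeq2 1, where limma listed 262 genes in all (1.51%), edgeR 250 and DESeq2 166. The fold change was above 0 for 20 members and below 0 for 8, with a median of 0.07 log2 units. Over all tested genes the median was −0.0021, and 49.4% of genes lay above 0. By role, 5 of 6 SNARE genes, 2 of 3 synaptotagmins, 2 of 3 complexins, 7 of 8 active zone genes and 4 of 8 vesicle protein genes lay above 0.

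The summed level of the members was 283842, 289811 and 302171 normalised counts in Top2b-low libraries, against 280662, 282711 and 282197 in WT libraries. Every Top2b-low sum lay above every WT sum, and the sum is weighted towards the few most abundant genes. When each gene counted equally, as the mean deviation of log2 values from the gene's own mean, the libraries stood at 0.0056, 0.075 and 0.016 in Top2b-low mice and at −0.050, 0.0051 and −0.051 in WT mice. The lowest Top2b-low library and the highest WT library then lay next to each other.

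Among the active zone genes, Rims1 had the smallest p of the 28. It encodes RIM1, a scaffold that draws calcium channels and vesicles to the release site. Rims1 had 4689.6, 5189.7 and 5105 normalised counts in Top2b-low libraries, against 4436, 4549 and 4080.0 in WT libraries. The groups did not overlap. Mean levels were 4995 ± 268 normalised counts in Top2b-low and 4355 ± 245 in WT libraries (SD, n = 3 each), a log2 difference of 0.20 (SE 0.08, 95% interval 0.02 to 0.38). Limma gave an unadjusted p = 0.0372 and an adjusted p = 0.99997. Its paralogue Rims2 had 2542, 2869 and 2461 normalised counts in Top2b-low libraries, against 2501, 2480.3 and 2311 in WT libraries, so its groups overlapped. Erc2, which encodes the CAST scaffold, had 3109.6, 3329.9 and 3699 normalised counts in Top2b-low libraries, against 2735, 2936 and 3288 in WT libraries. Each Erc2 value was higher in the Top2b-low library than in the WT library of the same number, but the groups overlapped (log2 fold change 0.18, SE 0.10, unadjusted p = 0.115).

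The giant scaffolds Bassoon and Piccolo varied more between mice than between genotypes. Bsn had 9796, 10392 and 7739 normalised counts in Top2b-low libraries, against 8012, 10233 and 7209 in WT libraries. Pclo had 7135, 8041 and 6188 normalised counts in Top2b-low libraries, against 6319.6, 7802 and 5677 in WT libraries. The order of the 6 libraries was the same for both genes, with Top2b-low replicate 2 highest, then WT replicate 2, Top2b-low replicate 1, WT replicate 1, and the N22 libraries of Top2b-low and WT mice last.

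Of the Munc13 priming factors, Unc13a (Munc13-1) was the most abundant per kb, with 7453, 7769 and 8285 normalised counts in Top2b-low libraries, against 6485, 7312 and 7792 in WT libraries. Unc13b (Munc13-2) had 1059.5, 1239.5 and 1504.5 normalised counts in Top2b-low libraries, against 1051, 1107 and 1252 in WT libraries. For both genes the lowest Top2b-low value lay inside the WT range (log2 fold changes 0.13 with an SE of 0.09 and 0.15 with an SE of 0.14). Unc13c (Munc13-3) was close to level by genotype, at −0.0098 with an SE of 0.29, its spread being that between the N22 libraries and the rest.

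The complexins, small proteins that both hold back and promote SNARE-driven fusion, held the other gene whose groups did not overlap. Cplx2 had 20636, 20987 and 23440.5 normalised counts in Top2b-low libraries, against 19349, 18239 and 19715 in WT libraries. Cplx2 averaged 21688 ± 1528 normalised counts in Top2b-low and 19101 ± 769 in WT libraries (SD, n = 3 each), a log2 difference of 0.18 (SE 0.08, limma unadjusted p = 0.0509, adjusted p = 0.99997). Cplx1 did not follow it, with 12492, 12333 and 13765 normalised counts in Top2b-low libraries, against 13808, 11923 and 13613 in WT libraries. Within each library the ratio of Cplx1 to Cplx2, on levels per kb, was thus 1.36, 1.32 and 1.32 in Top2b-low mice, against 1.61, 1.47 and 1.55 in WT mice. These ratios averaged 1.34 ± 0.023 in Top2b-low mice and 1.54 ± 0.068 in WT mice (SD, n = 3 each). It was the 1 ratio of 10 between related members whose genotypes did not overlap, and it was picked out after all 10 had been seen.

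Cplx3, a complexin known from retinal ribbon synapses and from neurons of the deepest cortical layer, had the largest fold change by genotype of the 28. It had 220.3, 231 and 359 normalised counts in Top2b-low libraries, against 147, 177 and 262 in WT libraries. The highest WT value, that of the N22 library, exceeded the Top2b-low values outside N22, so the groups overlapped (log2 fold change 0.47, SE 0.26, unadjusted p = 0.113). Rims1 and Cplx2 were thus the 2 of 28 members (7.14%) whose groups did not overlap, against 5.74% of all genes tested. Both were higher in Top2b-low mice, which 2.7% of all genes were without overlap (3.04% were lower).

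Among the SNARE genes, Snap25 had 41303, 42746 and 48348 normalised counts in Top2b-low libraries, against 45103, 43883 and 41817 in WT libraries. Outside N22 both Top2b-low values lay below both WT values, while in the N22 pair the Top2b-low library was the higher one. Snap25 had the smallest p of the 28 in limma's test of whether the genotype difference was another in the N22 pair than in the other 4 libraries. That test, with 2 residual degrees of freedom among samples, gave a difference of 0.29 log2 units (unadjusted p = 0.0417, adjusted p = 0.997), and 0 of 28 members passed it, against 4 of 17391 genes (0.023%) overall. At an unadjusted p under 0.05 it listed 624 genes (3.59%), and edgeR and DESeq2 were not run for it.

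The synaptobrevin genes had fold changes of opposite sign. Vamp1, the form known from brainstem and spinal synapses, had 5777, 5944 and 4666 normalised counts in Top2b-low libraries, against 7115, 6769 and 5253 in WT libraries. Vamp2, the main synaptobrevin of the forebrain, had 16547, 16635 and 17943 normalised counts in Top2b-low libraries, against 16605, 15171 and 16735 in WT libraries. The Vamp1 groups overlapped because of the N22 libraries (log2 fold change −0.22, SE 0.14, unadjusted p = 0.164), and the Vamp2 groups overlapped outside N22. Stx1a, which encodes syntaxin-1A, had a log2 fold change of 0.18 with an SE of 0.23. Nsf and Napb, which encode the disassembly ATPase and its β-SNAP adaptor, were close to level at 0.011 (95% interval −0.16 to 0.18) and 0.033 (−0.13 to 0.19).

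Of the synaptotagmins, Syt1, the fast calcium sensor of most forebrain synapses, had 28163, 30221 and 33993 normalised counts in Top2b-low libraries, against 26408, 28536 and 29961 in WT libraries. Its groups overlapped, at 0.12 log2 units with an SE of 0.09. Syt7, a slower sensor with high calcium affinity, had a narrower range, with 7718, 7487 and 7339 normalised counts in Top2b-low libraries, against 7382, 7282 and 7186 in WT libraries. Syt2 had a log2 fold change of −0.17 whose SE of 0.50 was the widest of the 28 genes, its N22 values lying far below the rest.

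The vesicle protein genes were spread on both sides of 0. Syp, which encodes synaptophysin, had the highest level of them, with 26666, 21419 and 29239.5 normalised counts in Top2b-low libraries, against 25164, 24752 and 27104 in WT libraries. Top2b-low replicate 2 was the lowest of the 6 and the Top2b-low N22 library the highest, so the Syp difference of −0.0052 log2 units (SE 0.12) lay well within the spread of one genotype. Gm14703, an antisense gene that shares 875 exonic bases with Syp in GENCODE vM21, had 113, 113 and 690.4 normalised counts in Top2b-low libraries, against 96.0, 164 and 267 in WT libraries, levels far below those of Syp.

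The SV2 glycoproteins, membrane proteins of the vesicle that include the target of the drug levetiracetam (Sv2a), had fold changes on both sides of 0. Sv2b had 9069, 9919 and 10955 normalised counts in Top2b-low libraries, against 8323, 9227 and 9602 in WT libraries (log2 fold change 0.14, SE 0.09, unadjusted p = 0.183). Sv2a had 11917, 11020.5 and 10356 normalised counts in Top2b-low libraries, against 12138, 11822 and 11209 in WT libraries (log2 fold change −0.08, SE 0.08). In both genes the groups overlapped. Sv2c, the form known from the basal ganglia and brainstem, had a log2 fold change of −0.24 with an SE of 0.26, the lowest of the 28.

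Syn1 and Syn2, which encode the synapsins that tether vesicles into a reserve pool, differed by 0.07 log2 units (SE 0.07) and 0.04 (SE 0.07). Syn3 was low, with 249, 327 and 335 normalised counts in Top2b-low libraries, against 213, 279 and 316 in WT libraries. Timp3 lies on the other strand within Syn3, shares 1733 exonic bases with it in GENCODE vM21 and had a mean of 2864 normalised counts. Whether counting used strand is not given in the sources used here, so reads of Timp3 and Syn3 cannot be told apart in those bases. Timp4, with a mean of 802 normalised counts, shares 90 exonic bases with Syn2, and Timp1 lies in a Syn1 intron at a mean of 6.2 normalised counts.

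**Figure D2:**
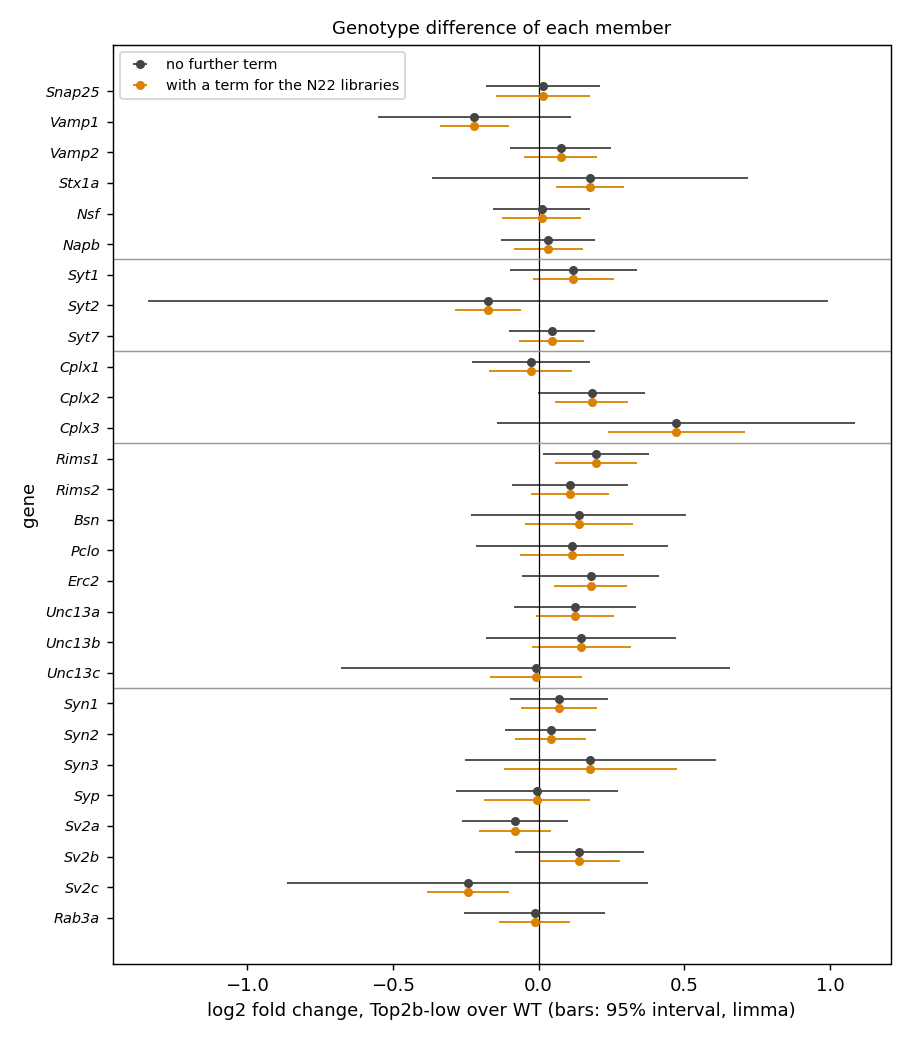
Log2 fold change of each gene, Top2b-low over WT, with 95% intervals from limma, without a further term (grey) and with a term for the N22 libraries (orange). The estimates are the same in both models, the intervals of Syt2, Unc13c, Sv2c and Stx1a narrow most with the term, and Cplx3 is highest in both at 0.47.

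The N22 libraries, 1 in each genotype, widened the genotype spread of several members, so genotype was also compared with a term for them. The term leaves each fold change as it is and changes its error. The SE of Syt2 was 0.05 with the term, against 0.50 without it, and that of Stx1a 0.05, against 0.23. With the term, 9 of 28 members had an unadjusted p under 0.05, against 5.81% of all genes tested. By unadjusted p = 0.00118 Cplx3 came first, then Vamp1 (0.00184), Sv2c (0.00305), Syt2 (0.00701), Stx1a (0.00724), Cplx2 (0.00906), Erc2 (0.0102), Rims1 (0.0103) and Sv2b (0.0481). None passed limma's adjustment over all genes, the lowest adjusted p being 0.568. With the replicate number as a block in place of the term, 13 of 28 had an unadjusted p under 0.05 (6.72% of all genes) and the lowest adjusted p was 0.440. Whether the numbers pair the mice of replicates 1 and 2 is not known. DESeq2 with the N22 term called 15 genes in all (0.0863%) and 0 members, the lowest adjusted p being 0.144, for Vamp1.

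The direction of the genotype difference could be read separately outside N22 and in the N22 pair, a comparison of single libraries. The Top2b-low library of that pair is the one named dNdN, and its allele may be another. Outside N22, Top2b-low mice had the higher mean in 21 of 28 members, and within the N22 pair the higher value in 19. For 16 members both were higher and for 4 both were lower. In 11 of 28 members (39.3%) the 4 libraries outside N22 did not overlap by genotype and the N22 pair differed in the same direction, against 17.7% of all genes tested. This rule was added after the values had been seen, and no test was made of the members' share against that of all genes. In 8 of the 11 the Top2b-low values were higher (28.6% of members, against 8.68% of all genes), namely Stx1a, Syt7, Cplx2, Cplx3, Rims1, Rims2, Erc2 and Unc13a. In the other 3, Vamp1, Syt2 and Sv2c, they were lower (10.7%, against 8.97%). The rule also held for 5 of 7 forebrain excitatory and 5 of 7 striatal markers (71.4% each), all of those higher in Top2b-low mice. In the other marker lists the share ran from 0% to 50.0%. In further lists of vesicle cycle genes it was 16.7% for exocytosis, 4.17% for endocytosis and 17.6% for vesicle filling.

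The sizes outside N22 and in the N22 pair lay close together for some of these members and apart for others. Cplx3 was 39.6% higher in Top2b-low than in WT mice outside N22 and 37.0% higher in the N22 pair, and Erc2 13.5% and 12.5% higher. Stx1a was 11.7% higher outside N22 and 15.5% higher in the pair. Rims1 was 9.82% and 25.1% higher, and Cplx2 10.8% and 18.9%. For the genes below 0, the difference was −15.6% and −11.2% for Vamp1, −10.1% and −13.8% for Syt2, and −11.2% and −23.4% for Sv2c. Snap25 stood at −5.55% outside N22 and 15.6% in the pair, the clearest change of sign among the abundant members.

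Limma called no marker of any cell type or brain region by genotype, and the markers' fold changes ran to both sides of 0. All 7 forebrain excitatory markers lay above 0 (median 0.23 log2 units), as did all 7 striatal markers (median 0.19). Above 0 also lay 4 of 7 Purkinje cell markers (median 0.047), 1 of 7 granule cell markers (median −0.096), 1 of 8 hindbrain markers (median −0.59), 4 of 14 pan-neuronal markers (median −0.076) and 0 of 6 oligodendrocyte markers (median −0.094). The counts were 3 of 6 for astrocytes, 3 of 6 for microglia and 3 of 5 for endothelium. DESeq2 with the N22 term called 1 hindbrain and 1 forebrain excitatory marker. Forebrain excitatory markers summed to 69895, 67332 and 84898 normalised counts in Top2b-low libraries, against 56342, 56822 and 72256 in WT libraries, so that outside N22 and within the N22 pair the Top2b-low sums were the higher ones. The part of these markers in the differences of the release genes was not tested.

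The comparison of the N22 libraries with the other 4, with genotype in the model, gave differences that varied by gene in size and sign. Of 28 members, 11 passed limma's test over all genes (39.3%), with 5 of them higher and 6 lower in N22, and edgeR and DESeq2 each called 12, Syt1 being the addition. Among all 17391 genes 28% passed, 11.3% higher and 16.7% lower, and no test was made of the members' share against that of all genes. The median difference of the members was 0.07 log2 units (−0.0046 over all genes), and the median size without regard to sign was 0.17 (0.22 over all genes). By role, 2 of 6 SNARE genes, 1 of 3 synaptotagmins, 1 of 3 complexins, 5 of 8 active zone genes and 2 of 8 vesicle protein genes passed. The value ranges of the N22 and the other libraries did not overlap in 14 members, 7 higher and 7 lower (50.0%, against 49.3% of all genes, 22.8% higher and 26.5% lower).

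Syt2, Unc13c and Sv2c fell by more than 0.5 log2 units in the N22 libraries. Syt2, the fast calcium sensor of hindbrain and many inhibitory synapses, had 1676 and 1944 normalised counts in the N22 libraries of Top2b-low and WT mice, against 4579 and 4623 in the other Top2b-low and 5179 and 5052 in the other WT libraries. It fell by 62.8% (log2 difference −1.43, SE 0.05, limma adjusted p = 1.23e-07). Unc13c, known from cerebellar granule cells, had 1528 and 1638 normalised counts in the N22 libraries, against 2567, 2969, 2579.8 and 2812 in the others (log2 difference −0.79, SE 0.08, adjusted p = 8.48e-05). Sv2c had 1218 and 1590.2 normalised counts in the N22 libraries, against 2205, 2149.9, 2404 and 2504 in the others (log2 difference −0.73, SE 0.07, adjusted p = 6.09e-05). For each of these genes the N22 values lay below all others by more than the whole range of those 4.

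A pair of genes rose by more than 0.5 log2 units. Stx1a had 4593 and 3977 normalised counts in the N22 libraries of Top2b-low and WT mice, against 2884 and 2915 in the other Top2b-low and 2532 and 2658 in the other WT libraries (log2 difference 0.64, SE 0.06, limma adjusted p = 4.54e-05). Cplx3 had 359 and 262 normalised counts in the N22 libraries, against 220.3, 231, 147 and 177 in the others (log2 difference 0.68, SE 0.11, adjusted p = 0.00199). Both N22 libraries stood above all 4 others for either gene, and in both genes the Top2b-low library of the N22 pair was the higher one.

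These 5 genes, which moved together with the library name, are shown by the 250 bases before their annotated start, on the gene's strand, from RefSeq on GRCm38.p6. Capitals mark the GC box, GGGCGG on either strand (CCGCCC on the other), the letters bound by Sp1-type factors.
Syt2, chr1:134646362-134646611, plus strand: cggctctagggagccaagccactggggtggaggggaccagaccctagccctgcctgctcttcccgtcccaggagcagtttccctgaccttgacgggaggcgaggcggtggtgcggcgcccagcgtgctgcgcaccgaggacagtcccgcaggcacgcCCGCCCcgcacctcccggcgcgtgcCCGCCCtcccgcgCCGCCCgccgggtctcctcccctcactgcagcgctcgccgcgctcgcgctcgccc
Unc13c, chr9:73969038-73969287, minus strand: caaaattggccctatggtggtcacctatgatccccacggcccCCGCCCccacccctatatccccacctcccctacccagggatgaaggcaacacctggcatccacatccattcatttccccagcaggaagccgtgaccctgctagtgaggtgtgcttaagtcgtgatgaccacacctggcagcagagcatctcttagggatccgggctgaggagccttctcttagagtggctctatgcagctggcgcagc
Sv2c, chr13:96132578-96132827, minus strand: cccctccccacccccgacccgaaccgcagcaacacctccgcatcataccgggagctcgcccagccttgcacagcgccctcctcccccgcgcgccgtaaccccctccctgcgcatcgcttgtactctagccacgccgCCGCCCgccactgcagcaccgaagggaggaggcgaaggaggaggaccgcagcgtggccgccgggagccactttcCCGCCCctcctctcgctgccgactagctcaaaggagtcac
Stx1a, chr5:135023232-135023481, plus strand: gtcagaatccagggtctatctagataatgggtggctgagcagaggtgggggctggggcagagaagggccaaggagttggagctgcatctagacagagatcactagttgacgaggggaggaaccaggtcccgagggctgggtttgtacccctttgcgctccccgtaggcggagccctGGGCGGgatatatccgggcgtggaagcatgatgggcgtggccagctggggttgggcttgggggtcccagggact
Cplx3, chr9:57606282-57606531, minus strand: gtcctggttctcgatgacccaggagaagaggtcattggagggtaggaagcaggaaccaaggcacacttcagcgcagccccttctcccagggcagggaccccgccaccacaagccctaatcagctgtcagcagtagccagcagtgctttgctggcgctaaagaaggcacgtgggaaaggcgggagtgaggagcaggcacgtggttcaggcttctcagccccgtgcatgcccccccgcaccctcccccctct
The Syt2 window, that of the first of 2 starts in the table, holds 3 GC boxes, that of Sv2c 2, those of Unc13c and Stx1a 1 each and that of Cplx3 none. Their GC content was 76.0%, 70.8%, 58.8%, 62.0% and 62.8%, against a median of 52.4% over the 32851 promoter windows of the table. The window of the second Syt2 start held 2 GC boxes and had a GC content of 66.4%. The GC content of the other members' windows was not compared. A GC box stood in 32.7% of all windows and in 16 of the 30 windows of the 23 members that the table holds. The cAMP response element TGACGTCA stood in 1.55% of all windows and in 1 member window (Syn1), TATAAA in 12.4% and in 2 member windows (both of Sv2b), and GCGGGGGCG, an Egr1 element, in 2.57% and in 1 member window (Syn2). All 4 motifs were searched on both strands. GCGGGGGCG and GGGCGG can overlap in the bases GGGCG.

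Smaller differences passed the test in 6 further members. Vamp1 had 4666 and 5253 normalised counts in the N22 libraries, against 5777 to 7115 in the others (log2 difference −0.37, limma adjusted p = 0.00137). The scaffolds Bsn and Pclo were also lower (log2 differences −0.36 and −0.30, adjusted p = 0.0139 and 0.0259). Unc13b, Rab3a and Erc2 were higher, at 0.30, 0.23 and 0.21 log2 units (adjusted p = 0.0197, 0.0152 and 0.0278). Rab3a had 9252 and 9823 normalised counts in the N22 libraries, against 7866 to 8316 in the others. The adjusted p of Bsn, Pclo, Erc2, Unc13b and Rab3a was above 0.05 when either N22 library was left out, which left 6 members called, the lone N22 library being assumed to vary like the others. Without a filter on low values, 7 members were called, Bsn, Pclo, Erc2 and Unc13b being lost. Pclo was also lost under quantile normalisation and without replicate 2 of either genotype (adjusted p = 0.0505, 0.0551 without the Top2b-low and 0.0525 without the WT replicate). Erc2 was lost without replicate 1 of either genotype and without the genotype term, and Unc13b without WT replicate 1.

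Vamp1, Stx1a, Syt2, Cplx3, Unc13c and Sv2c were called in each of the 15 alternatives run. The remaining 17 members did not pass limma's test in the model with genotype and all 6 libraries. Of these, Syt1 passed in edgeR and DESeq2 (adjusted p = 0.0253 and 0.0365), Sv2b under quantile normalisation (0.0332) and Syp without Top2b-low replicate 1 (0.038). Estimates close to 0 were those of Snap25 (0.06 log2 units, 95% interval −0.11 to 0.23), Nsf (−0.0024, −0.15 to 0.14), Syn1 (0.0080, −0.13 to 0.15) and Syn2 (0.015, −0.11 to 0.15). Those of Syt7 (−0.040, −0.16 to 0.08) and Rims1 (−0.045, −0.19 to 0.10) were also close to 0.

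**Figure D3:**
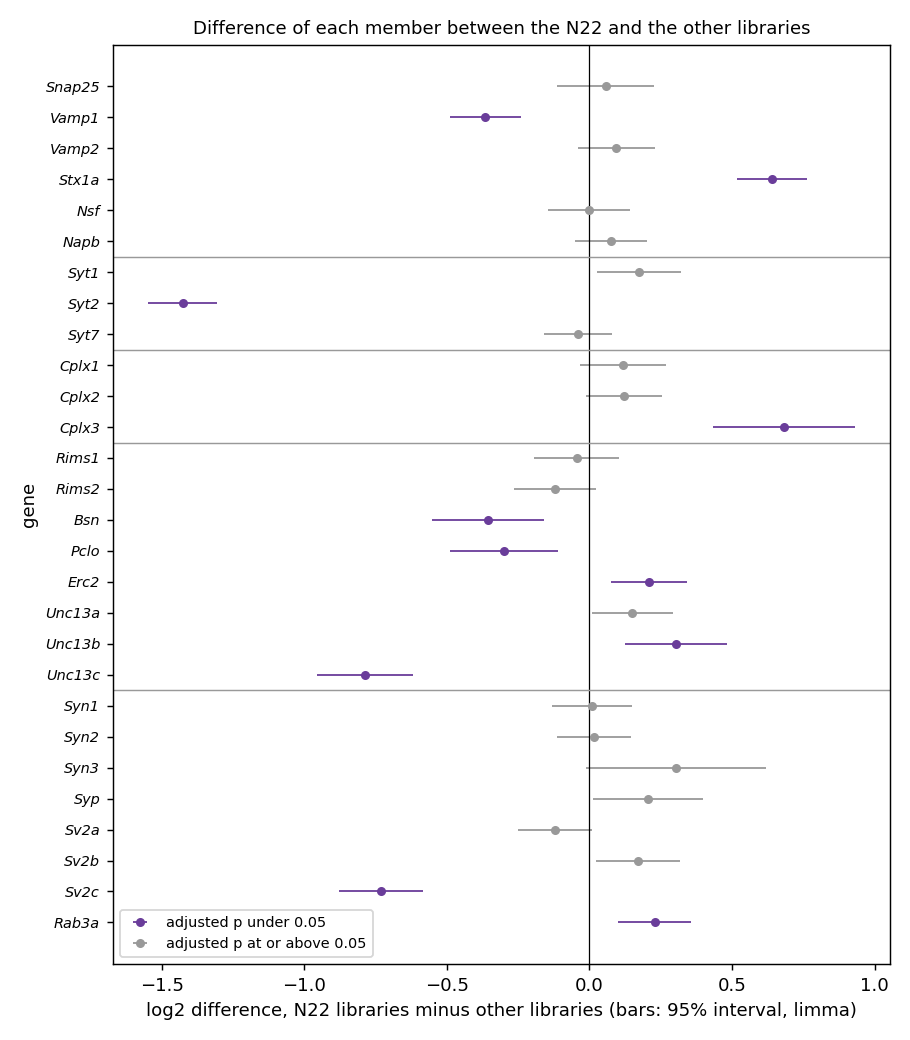
Log2 difference of each gene, N22 libraries minus the other 4, with 95% intervals from limma with genotype in the model, purple where the adjusted p was under 0.05. Syt2 lies far to the left at −1.43, and Cplx3 and Stx1a to the right at 0.68 and 0.64.

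Syt2, Unc13c, Sv2c and Vamp1, which fell, each have a relative that limma did not call (Syt1 was called higher by edgeR and DESeq2), and the ratio of a pair within a library needs no scaling between libraries. On levels per kb, the ratio of Syt2 to Syt1 was 0.0538 and 0.0708 in the N22 libraries, against 0.167 to 0.214 in the others. The ratio of Unc13c to Unc13a was 0.265 and 0.302 in the N22 libraries, against 0.494 to 0.571, and that of Sv2c to Sv2a 0.0562 and 0.0678, against 0.0884 to 0.101. The ratio of Vamp1 to Vamp2 was 0.0974 and 0.118, against 0.131 to 0.167. In all 4 ratios the N22 range lay wholly below that of the other libraries. The ratio of Cplx3 to Cplx2 ran the other way, at 0.0255 and 0.0222 in the N22 libraries, against 0.0127 to 0.0183. The first gene of each of these pairs was picked for its N22 difference, so the ratios are no separate support for it. Of the other ratios, Syn3 to Syn1 was higher in N22 without overlap (0.0104 and 0.00950, against 0.00664 to 0.00930). Those of Unc13b to Unc13a, Sv2b to Sv2a, Cplx1 to Cplx2 and Rims2 to Rims1 overlapped.

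**Figure D4:**
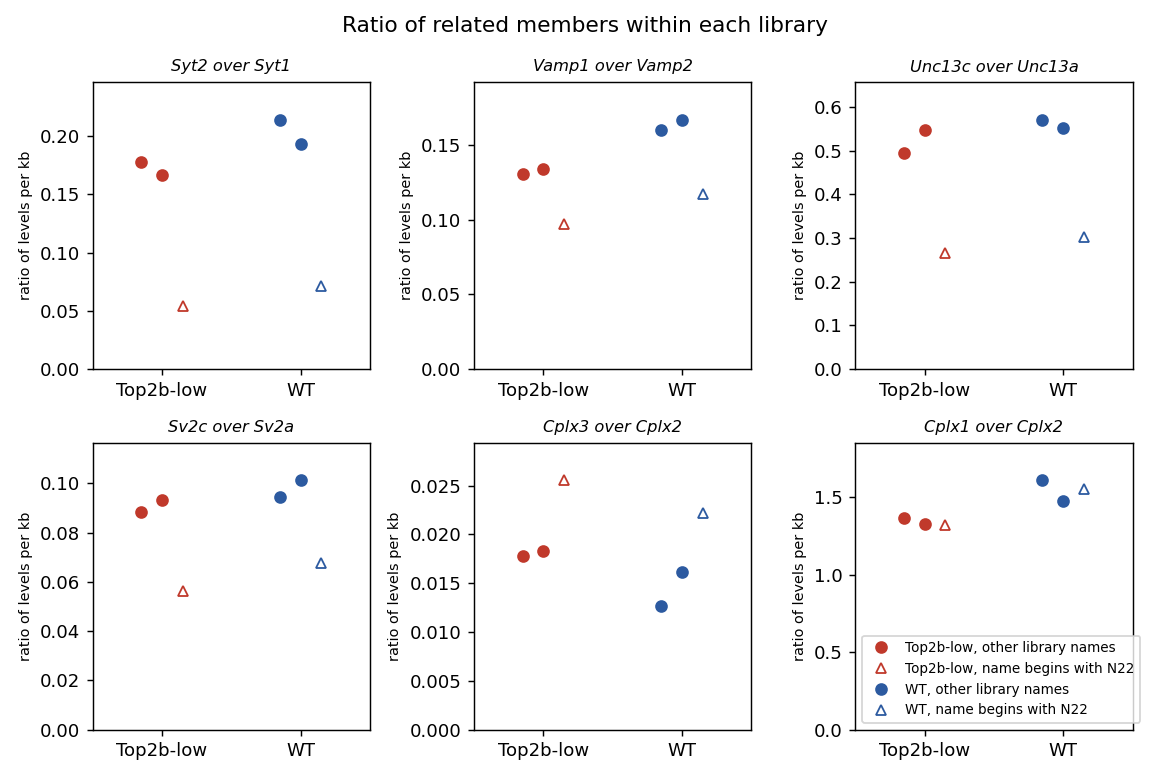
Ratio of levels per kb of 6 pairs of related genes in each library, Top2b-low (red) left of WT (blue), with open triangles for the N22 libraries. In the panels of Syt2, Vamp1, Unc13c and Sv2c the triangles lie below all circles, in that of Cplx3 above them, and in that of Cplx1 over Cplx2 all Top2b-low points lie below all WT points.

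The release genes that differed by the library name did so beside the neuronal, regional and glial markers given above, and the part of those markers in the differences was not tested. Genotype as titled and N22 were balanced, with 1 N22 library in each genotype. Whether the Top2b-low mouse of N22 carries the allele of the others is not known from the labels. What the name stands for is not given, and depth differed with it, the N22 libraries being the deepest, so name, depth and content of brain regions cannot be told apart.

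**Figure D5:**
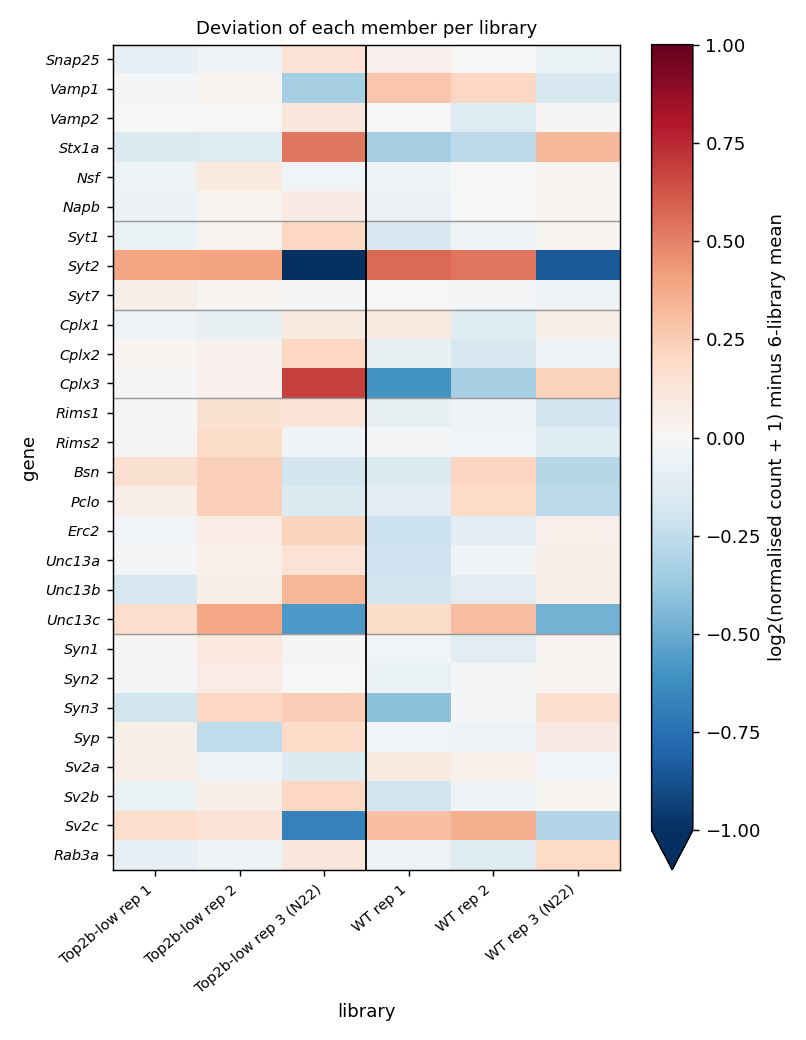
Deviation of each gene in each library from its mean over the 6 libraries, in log2(normalised count + 1), Top2b-low libraries left of WT libraries, with the scale ending at −1 and 1. In both N22 columns Syt2, Unc13c and Sv2c are blue and Stx1a and Cplx3 red, the colours being stronger in the Top2b-low N22 library, and Cplx3 is also blue in WT replicates 1 and 2.

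Other genes of the vesicle cycle, in 3 lists, gave 0 calls by genotype in limma, edgeR and DESeq2. The other exocytosis genes (48 of 49 tested) had a median fold change of 0.0061 log2 units, the endocytosis genes (24) 0.015 and the genes of vesicle filling (17) −0.030, against 0.07 in the 28 release genes. At an unadjusted limma p under 0.05 each of the 3 lists held 0, where the 28 release genes held 1. With the N22 term, 1 of 48 other exocytosis, 0 of 24 endocytosis and 5 of 17 vesicle filling genes were under 0.05. Of the release genes 9 of 28 were, and of all genes 5.81%. Of the forebrain excitatory and the striatal markers, 5 of 7 each were. Without the term, the smallest p in the 3 lists belonged to Slc17a6. It encodes the vesicular glutamate transporter VGLUT2 of brainstem and thalamus. In the same list Slc17a7, the VGLUT1 of the cortex, came next, with a difference of opposite sign. Slc17a7 had 16503, 17842 and 20904 normalised counts in Top2b-low libraries, against 14903, 14944 and 17969 in WT libraries (limma unadjusted p = 0.115). Slc17a6 had 2422, 2093 and 1564 normalised counts in Top2b-low libraries, against 2613, 2613 and 2259 in WT libraries (unadjusted p = 0.0824).

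By library name, 16 of 48 other exocytosis genes passed limma's test (33.3%), 6 higher and 10 lower in the N22 libraries, beside 28% of all genes (11.3% higher, 16.7% lower). Cadps2, a priming factor of dense-core vesicles known from cerebellar granule cells, was among the lower ones (log2 difference −0.61, limma adjusted p = 0.000214), and Syt5 among the higher ones (0.57, adjusted p = 0.000293). Of 24 endocytosis genes 10 passed (41.7%), 3 higher and 7 lower, among them the dynamin gene Dnm3 (−0.37) and the endophilin gene Sh3gl3 (0.41). Of 17 vesicle filling genes 9 passed (52.9%), 6 higher and 3 lower, among the higher ones the vesicular zinc transporter gene Slc30a3 (0.70 as the difference in log2 units) and Atp6v1d, a proton pump subunit (0.42). The lowest difference of this list was that of Slc18a2, at −1.40 log2 units. Its genotype difference in the N22 pair also departed from that outside N22, by −2.50 log2 units.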

How the data were processed

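The values are the authors' normalised counts, deposited as a signal for each gene in each library. RSEM and mm39 are named in the submitters' processing notes. Divided by what 1 read is worth in its library, 100% of values came out whole (tolerance 1e-06), so whole reads were recovered. The factors divided out equalled DESeq2's median-ratio size factors. Not given in the sources used here are the RSEM version, the aligner, the annotation and whether strand was used. No column was left without a sample. Symbols and exon lengths came from GENCODE vM21 (GRCm38), which matched 51498 of 78298 identifiers and at least 99.4% of the reads in each library, and promoters from RefSeq.

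Genes with a mean of at least 10 normalised counts (17391) were compared on log2(normalised count + 1) with limma 3.58.1 in R 4.3.3 (two-sided, empirical Bayes with a trend on intensity, Benjamini-Hochberg over all tested genes, threshold 0.05). This scale understates the change of low genes. Genotype entered without a covariate, and N22 was tested with genotype in the model. The alternatives were TMM factors, quantile normalisation, other pseudocounts and filters, edgeR 4.0.16 and DESeq2 1.42.0 on the recovered reads, a replicate block, an N22 term, the 4 libraries outside N22, and each library left out. The N22 term or block with edgeR or DESeq2, and the rule of no overlap outside N22, were added after the values were seen. The models were tested on simulated counts with known changes larger than any genotype difference of the members, so that test does not cover differences of the members' size. Replicates were treated as separate mice, since the series text counts mice for each genotype.

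Both genotypes have replicates 1 to 3 in the titles. Deviations from the group means correlated between libraries of the same number at 0.33, 0.35 and 0.68, so by the rule that every pair be over 0.1 the numbers were taken to pair the libraries. The pairing comes from these values alone, and they do not settle it for replicates 1 and 2. Crossed, Top2b-low replicate 2 with WT replicate 1 stood at 0.37, above both matched pairs, and the other crossed pair at 0.24. With 1 N22 library in each genotype, replicates 1 and 2 can correlate through their shared distance from replicate 3, however they are numbered. No pair of libraries of a group agreed to within sampling noise (chi-square per degree of freedom 4.17 to 39.3).

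The members, the gene lists and the tests were chosen with earlier results of these data known. Values per library are given for the 6 members with the smallest genotype p, for members called by N22 with a difference of at least 0.5, for the highest member of each role and for sets of paralogues, beside a few others. From each other list the genes with the smallest p are named, and Slc18a2 for the size of its N22 difference.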

Additional observations from a re-analysis of the deposited data

Results flagged for a closer look

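The 4 libraries outside N22 were checked in each of the 28 genes for a value far from the rest, by the gap to its nearest neighbour over the whole range on the log2(normalised count + 1) scale. The limit was Dixon's 95% critical value for 4 values. Vamp2 was marked because WT replicate 2, the lowest at 15171 normalised counts, left a gap of 0.942 of the range below the other 3. Rims2 was marked because Top2b-low replicate 2, the highest at 2869 normalised counts, left a gap of 0.83 of the range. Chance marks about 1 in 20 such groups, and 2 of 28 were marked here.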

How the results depend on the processing

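No member was called by genotype in any of the 20 alternatives, and the median fold change of the 28 stayed above 0. With the replicate block the median was 0.07 log2 units, 0 members were called and 1169 genes had an unadjusted p under 0.05, against 262 without it. Over all genes, DESeq2 called 15 with the N22 term and 15 with the replicate block, and leaving out 1 replicate gave 0 to 1. The number of members whose genotypes did not overlap was 11, against 2, when the rule was applied outside N22 with the same sign in the N22 pair. The genotype fold changes of 9 members turned sign in at least 1 alternative, Sv2c, Stx1a and Syt2 among them, and the cause was not tested. Under quantile normalisation Snap25 stood at −0.047 and Nsf at −0.068. Unc13c and Syp stood at 0.010 each in edgeR and at 0.0067 and 0.0057 in DESeq2, and Syp at 0.0049 in edgeR and 0.00070 in DESeq2 with the N22 term. In the 4 libraries outside N22, Snap25 stood at −0.082, Unc13c at 0.036 and Rab3a at 0.023. With 1 replicate left out, the fold change ran from −0.053 to 0.061 for Snap25, −0.045 to 0.38 for Stx1a, −0.034 to 0.039 for Nsf, −0.64 to 0.31 for Syt2, −0.094 to 0.012 for Cplx1, −0.25 to 0.27 for Unc13c, −0.10 to 0.12 for Syp, −0.45 to 0.036 for Sv2c and −0.079 to 0.081 for Rab3a. For N22, 7 members were called without a filter, where more genes are tested, and 6 to 11 with 1 replicate left out, 6 without either N22 library. All genes called then numbered 1711 to 4576. Nsf stood at 0.016 with TMM factors and 0.018 in edgeR, and Rims1 at 0.0077 under quantile normalisation. With 1 replicate left out the N22 difference ran from −0.089 to 0.20 for Snap25, −0.050 to 0.045 for Nsf, −0.14 to 0.049 for Rims1, −0.075 to 0.091 for Syn1 and −0.036 to 0.067 for Syn2. Where an N22 library was left out, the lone one was assumed to vary like the others. The lowest member value was 147 normalised counts, well above the 3.64 that 3 reads came to in that library.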
